A study of Homo sapiens with 8 samples.

Results

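MHC class I antigen presentation was followed here through 9 genes measured by RNA sequencing in T98 and U87, established human glioblastoma cell lines. The members were HLA-B, HLA-C, HLA-E, HLA-F, B2M, TAP1, TAP2, PSMB8 and PSMB9, found by symbol among 18787 genes of the deposited table. All 9 passed the filter on low values, as did 14282 genes in all. The 4 groups were T98 with LKB1 siRNA, T98 with control siRNA, U87 with LKB1 siRNA and U87 with control siRNA, each with 2 libraries, and RNA was taken 72 h after transfection with the Lipofectamine RNAiMAX reagent. Both siRNAs reached the cells by the same transfection, so untransfected cells are not part of any comparison. LKB1 is the kinase encoded by STK11, and the study compared cells with and without its transcript lowered. The siRNA sequences were not used here. Whether the 2 libraries of a group came from separate cultures is not stated, so every p-value below covers the spread among these libraries alone, and that spread may be technical.

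Class I molecules show fragments of the cell's own proteins to cytotoxic T cells. Proteins are cut by the proteasome, in which interferon-induced subunits replace the constitutive catalytic ones, and the peptides are carried into the endoplasmic reticulum by the TAP transporter. There a loading complex fits them onto a heavy chain bound to beta-2-microglobulin, and the loaded molecule moves to the cell surface, where HLA-E is also read by natural killer cells. Glioma cells carry class I molecules at levels that differ between tumours, and interferons raise most genes of the pathway through response elements in their promoters.

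The promoters of 5 members are shown: B2M, TAP1 and TAP2 because they hold an interferon response element core, and HLA-B and PSMB9, because they lie at opposite ends of the comparison between the lines. Of the patterns searched for, only CCAAT was found in HLA-B and PSMB9. The sequences are from RefSeq on GRCh38.p14, 250 bases before to 50 after the annotated start, and are written 5′ to 3′ on the strand of the gene. RefSeq windows were found for 8 of the 9 members, 10 windows in all. Capitals mark matches, on either strand, to the core of the interferon-stimulated response element (GAAA, any 2 bases, GAAA), to a strict NF-kappa-B pattern (GGG, any 2 bases, TTTCC) and a looser one that contains it (GGG, any 3 bases, TTCC), to TGACGT (a site of CREB factors) and to CCAAT (the box bound by NF-Y).
B2M, chr15:44711267-44711566, plus strand: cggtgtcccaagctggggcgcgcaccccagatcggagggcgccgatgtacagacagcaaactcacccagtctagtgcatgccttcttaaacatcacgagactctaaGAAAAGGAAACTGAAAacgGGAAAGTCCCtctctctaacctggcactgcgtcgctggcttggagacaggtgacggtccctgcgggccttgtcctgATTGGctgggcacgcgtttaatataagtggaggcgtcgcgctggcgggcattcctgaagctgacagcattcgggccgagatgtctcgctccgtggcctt
HLA-B, chr6:31357130-31357429, minus strand: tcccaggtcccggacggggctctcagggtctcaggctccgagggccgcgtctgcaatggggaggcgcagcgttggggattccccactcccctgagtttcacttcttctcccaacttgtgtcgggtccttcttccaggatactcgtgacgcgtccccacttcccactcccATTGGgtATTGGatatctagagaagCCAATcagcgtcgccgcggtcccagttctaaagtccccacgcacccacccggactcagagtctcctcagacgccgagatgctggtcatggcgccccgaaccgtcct
TAP1, chr6:32853655-32853954, minus strand: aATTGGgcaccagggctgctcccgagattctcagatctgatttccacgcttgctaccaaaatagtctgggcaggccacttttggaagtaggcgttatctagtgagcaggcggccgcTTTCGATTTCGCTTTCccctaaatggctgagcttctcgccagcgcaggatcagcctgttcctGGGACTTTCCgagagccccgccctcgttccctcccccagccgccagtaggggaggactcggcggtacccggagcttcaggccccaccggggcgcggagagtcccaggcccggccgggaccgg
TAP2, chr6:32838690-32838989, minus strand: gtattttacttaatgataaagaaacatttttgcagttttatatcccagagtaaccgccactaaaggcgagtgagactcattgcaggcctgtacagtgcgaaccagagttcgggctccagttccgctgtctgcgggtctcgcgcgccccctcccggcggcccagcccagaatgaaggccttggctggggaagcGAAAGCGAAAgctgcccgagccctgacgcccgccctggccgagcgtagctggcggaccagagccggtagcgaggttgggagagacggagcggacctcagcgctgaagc
PSMB9, chr6:32853942-32854241, plus strand: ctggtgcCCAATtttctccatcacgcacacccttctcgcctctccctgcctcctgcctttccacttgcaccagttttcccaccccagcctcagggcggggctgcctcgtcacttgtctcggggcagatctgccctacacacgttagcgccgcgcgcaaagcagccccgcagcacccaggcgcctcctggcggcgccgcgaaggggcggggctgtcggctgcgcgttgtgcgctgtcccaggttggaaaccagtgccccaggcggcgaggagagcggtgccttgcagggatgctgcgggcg
The response element core was found in windows of 5 of the 8 members (B2M, HLA-F, TAP1, TAP2 and PSMB8), and in 3.57% of 35116 human windows of this length. Both B2M and the TAP1 window shown hold 2 overlapping matches to it, at bases 107 to 116 and 113 to 122 of the B2M window and at bases 117 to 126 and 123 to 132 of the TAP1 window. The same windows hold 1 match that meets both NF-kappa-B patterns, at bases 126 to 135 in B2M and 179 to 188 in TAP1. The strict pattern is found in 1.91% and the looser one in 6.52% of all windows. CCAAT was found for 6 of the 8 members, against 34.6% of all windows, and HLA-B holds 3 matches to it. TGACGT was found in a PSMB8 window, against 7.98% of all windows. A member was counted if any of its windows held a match, and TAP1 and PSMB8 have more than 1, whereas the percentages are of single windows. TAP1 and PSMB9 are read in opposite directions from starts 488 bases apart, so their windows share 13 bases, and the CCAAT match of PSMB9 and that of TAP1 are the same bases, counted for both. A match is a run of letters and was not tested as a binding site in these cells. Sites that depart from a pattern in a base or in spacing are not marked, so a window without a match may still hold one.

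Reads were recovered from the deposited values and summed to between 25234334 and 38031734 per library. The lowest count of any member was 409 reads, for PSMB9, which carries a counting error of 4.94%. Each group had 1 library on sequencing lane 2, and the other on lane 4 for T98 or lane 5 for U87, per the column headers. Values below are normalised signal, in reads at a common library size, with the lane 2 library given before the other. STK11 was at 339.9 and 588 with LKB1 siRNA in T98, against 1999 and 2041 with control siRNA. In U87 the STK11 signal was 361 and 385 with LKB1 siRNA, against 2445 and 2041 with control siRNA. In both lines the LKB1 siRNA libraries lay below the control libraries for the targeted gene, with log2 fold changes of −2.17 in T98 (adjusted p = 0.0824 by limma-trend, 0.00254 with a lane term) and −2.58 in U87 (adjusted p = 0.0466, 0.00195 with a lane term). Fewer cells expressing a gene and less RNA per cell cannot be told apart in these bulk libraries. The glioma markers VIM and CD44 were between 34020 and 292296 in all libraries, whereas the astrocyte marker GFAP stayed between 1.85 and 50.7, and SOX2 and S100B were at 3.48 or less. The leukocyte genes PTPRC, AIF1 and CD3E were at 9.63 or less in every library.

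B2M, HLA-C, HLA-B and HLA-E were the 4 most abundant members per kilobase of transcript in the control libraries of both lines, and neither they nor HLA-F passed the test with LKB1 siRNA in either line. Per kilobase of transcript, B2M, the light chain shared by all class I molecules, averaged 36074 with LKB1 siRNA and 32451 with control siRNA in T98, and 66748 with LKB1 siRNA and 65372 with control siRNA in U87. Per kilobase in the control libraries, HLA-C and HLA-B followed with 19096 and 11232 in T98, and with 16634 and 24528 in U87. The order of these classical heavy chains thus differed between the lines, with HLA-C first in T98 and HLA-B first in U87. HLA-E and HLA-F, the nonclassical heavy chains, were lower per kilobase than both, at 3191 and 1775 in T98 controls and 4197 and 2949 in U87 controls. Heavy-chain genes share long stretches of sequence, and how reads matching several of them were counted is not stated in the labels or headers, so the split among them is uncertain.

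HLA-B (NM_005514, chromosome 6, 31321649 to 31324989, minus strand, hg19) had a signal of 18563 and 17426 with LKB1 siRNA in T98, against 15970 and 19523 with control siRNA. In U87, HLA-B was at 38586 and 39796 with LKB1 siRNA, against 43316 and 34191 with control siRNA. The siRNA groups overlapped in both lines, while every U87 library was above every T98 library. HLA-C (NM_002117, chromosome 6, 31236526 to 31239913, minus strand) had 29273 and 31725 with LKB1 siRNA in T98, against 26812 and 34065 with control siRNA. In U87, HLA-C was at 24930 and 27577 with LKB1 siRNA, against 28584 and 24446 with control siRNA. HLA-C overlapped between siRNAs in each line and also between the lines. HLA-E (NM_005516, chromosome 6, 30457183 to 30461982, plus strand), the ligand of the NKG2A receptor, had 9488 and 9394 with LKB1 siRNA in T98, against 7211 and 9826 with control siRNA. In U87, HLA-E was at 10508 and 11455 with LKB1 siRNA, against 12129 and 10282 with control siRNA. The T98 control libraries of HLA-E lay on either side of both LKB1 siRNA libraries. HLA-F (NM_001098479, chromosome 6, 29691117 to 29695073, plus strand), which can reach the surface without peptide, had 2935 and 3308 with LKB1 siRNA in T98, against 2415 and 3643 with control siRNA. In U87, HLA-F was at 4433 and 5492 with LKB1 siRNA, against 5149 and 4913 with control siRNA. HLA-F overlapped between siRNAs in both lines, and all U87 libraries were above all T98 libraries. HLA-F shares 535 exon bases with the antisense gene HLA-F-AS1 in GENCODE, and the library kit marks no strand, so their reads cannot be told apart. B2M (NM_004048, chromosome 15, 45003685 to 45010357, plus strand) had 36358 and 35142 with LKB1 siRNA in T98, against 29224 and 35094 with control siRNA. In U87, B2M was at 66831 and 65464 with LKB1 siRNA, against 70386 and 59183 with control siRNA. The level of B2M differed by line and overlapped between siRNAs in U87, whereas in T98 both LKB1 siRNA libraries were slightly above the higher control library.

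TAP1 and TAP2, the subunits of the peptide transporter, did not share a pattern across the lines. TAP1 (NM_000593, chromosome 6, 32812986 to 32821748, minus strand) had 3687 and 3236 with LKB1 siRNA in T98, against 2754 and 2910 with control siRNA. In U87, TAP1 was at 3332 and 2554 with LKB1 siRNA, against 3460 and 2407 with control siRNA. Both LKB1 siRNA libraries of TAP1 exceeded both controls in T98, while in U87 the values went by lane and not by siRNA. TAP2 (NM_018833, chromosome 6, 32789610 to 32806547, minus strand) had 5940 and 4728 with LKB1 siRNA in T98, against 5258 and 4287 with control siRNA. In U87, TAP2 was at 2469 and 1888 with LKB1 siRNA, against 2625 and 2345 with control siRNA. TAP2 was higher in every T98 library than in any U87 library, and on each lane it was higher with LKB1 siRNA in T98 and lower in U87. GENCODE places 456 exon bases of PSMB8-AS1 opposite TAP1, and 2064 exon bases of AL669918.1 on the same strand as TAP2, so their counts may hold reads of those genes.

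PSMB8 and PSMB9, catalytic subunits of the immunoproteasome, were higher in T98 and showed the lowest values in U87 cells with LKB1 siRNA. PSMB8 (NM_148919, chromosome 6, 32808494 to 32812712, minus strand), the inducible chymotrypsin-like subunit, had 3588 and 3176 with LKB1 siRNA in T98, against 2587 and 2860 with control siRNA. In U87, PSMB8 was at 1433 and 1505 with LKB1 siRNA, against 1835 and 1570 with control siRNA. The LKB1 siRNA libraries of PSMB8 were above both controls in T98 and below both in U87. PSMB9 (NM_002800, chromosome 6, 32821938 to 32827628, plus strand), which replaces the caspase-like subunit, had 2204 and 1942 with LKB1 siRNA in T98, against 2099 and 2310 with control siRNA. In U87, PSMB9 was at 542 and 571 with LKB1 siRNA, against 977 and 730.2 with control siRNA. PSMB9 overlapped between siRNAs in T98, and in U87 both LKB1 siRNA libraries lay below both controls. With 2 libraries against 2, even such full separation has a two-sided p of 0.333 by an exact permutation test. This holds for B2M and TAP1 in T98 too, and the share of all genes so separated was not counted. PSMB8 and PSMB9 share 139 exon bases on opposite strands, and PSMB8-AS1 overlaps both, so part of their reads cannot be assigned.

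**Figure D1:**
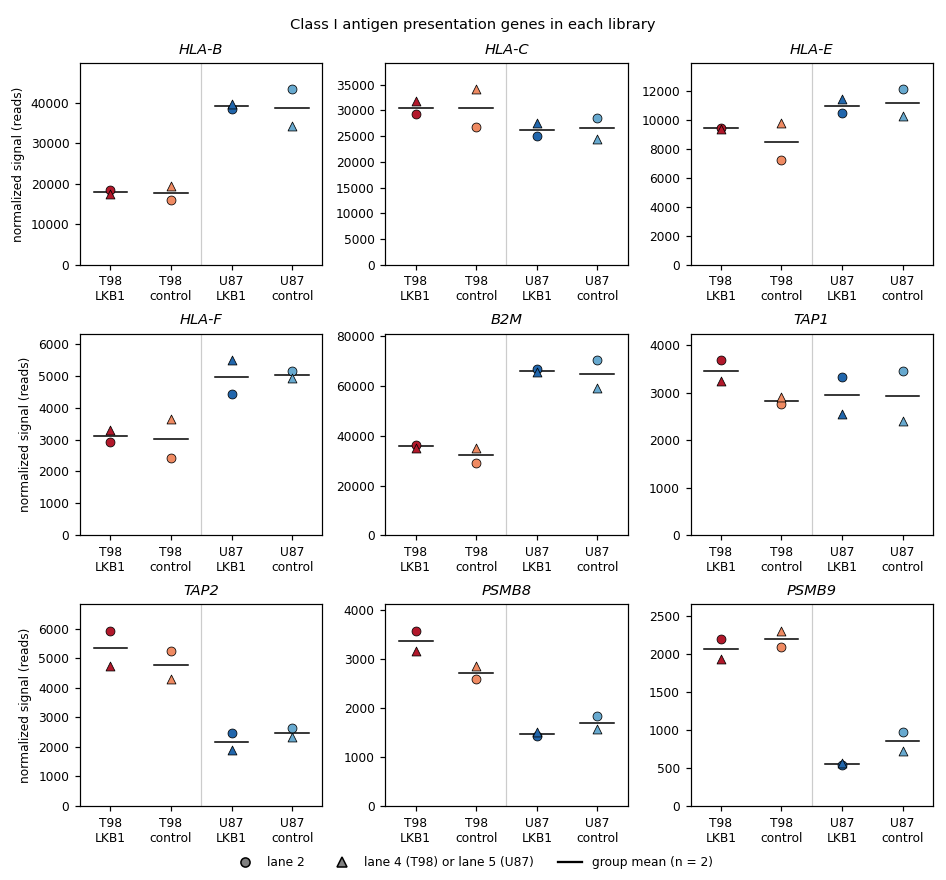
Normalised signal (reads at a common library size, linear axes from 0) of the 9 members in each library, with circles for lane 2, triangles for lane 4 (T98) or lane 5 (U87) and lines for the mean of the 2 libraries of a group. HLA-B, HLA-F and B2M lie lower in T98 than in U87, while TAP2, PSMB8 and PSMB9 lie higher in T98.

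LKB1 siRNA against control siRNA asked whether lowering STK11 changed the members. In T98, 0 of 9 members passed limma-trend at a Benjamini-Hochberg adjusted p of 0.05, where 0.028% of all genes did, and 0 had an unadjusted p under 0.05. With a lane term for each line in the model, 0 of 9 passed, where 15.8% of all genes did, and the lowest adjusted p was 0.150, for TAP1. The log2 fold changes in T98, on log2(signal + 1), ran from −0.09 for PSMB9 to 0.31 for PSMB8, with a median of 0.16 over the members against 0.02 over all genes, and 8 of 9 were positive. PSMB8 had a T98 effect of 0.31 (SE 0.18, 95% interval −0.11 to 0.73, adjusted p = 0.60 with limma-trend), and TAP1 one of 0.29 (SE 0.23, interval −0.26 to 0.83). Over the 9 members the 95% intervals in T98 reached from −0.58 to 0.83, so changes of that size were not excluded by these libraries.

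In U87, 0 of 9 members passed limma-trend with Benjamini-Hochberg adjustment, where 0.056% of all genes did, and PSMB9 was the 1 member with an unadjusted p under 0.05. The lane term also gave 0 of 9, where 11.2% of all genes passed. PSMB9 averaged 557 ± 20.4 with LKB1 siRNA and 853 ± 174 with control siRNA in U87 (SD, n = 2 each), a log2 fold change of −0.60 (SE 0.21, 95% interval −1.09 to −0.11, unadjusted p = 0.0230, adjusted p = 0.401 with limma-trend). With the lane term the adjusted p of PSMB9 in U87 was 0.0565 by limma-trend. Leaving 1 library out of the lane-term fit cannot check this value, since the residual spread then comes only from the line left whole. With 1 library left out, with or without the lane term, the U87 effect on PSMB9 ran over −0.85 to −0.35. The other 8 members had U87 effects from −0.21 to 0.04, among them −0.20 (SE 0.22) for TAP2 and −0.21 (SE 0.18) for PSMB8. The median over the 9 was −0.03, against −0.0018 over all genes. HLA-B, HLA-C, B2M and TAP1 were within 0.04 of 0 in U87 and changed sign with the scaling of the libraries.

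Averaged over both lines, 0 of 9 members passed limma-trend, where 1.86% of all genes did (1% higher and 0.854% lower), and 0 had an unadjusted p under 0.05. The lane term gave 0 of 9, where 26.4% of all genes passed (13.2% in each direction), with an unadjusted p under 0.05 for 1 member, PSMB9. Over both lines the effect on PSMB9 was −0.35 (SE 0.15, with an adjusted p of 0.321 by limma-trend and 0.0631 with the lane term). The difference between the lines' responses, T98 minus U87, passed limma-trend for 0 of 9 members, where 0% of all genes passed, and at an unadjusted p under 0.05 for 0. With the lane term it was 0 of 9, where 0.476% of all genes passed (0.371% higher and 0.105% lower), and 1 member, PSMB8, had an unadjusted p under 0.05. That difference was 0.52 (SE 0.25) for PSMB8, 0.51 (SE 0.30) for PSMB9 and 0.36 (SE 0.31) for TAP2, so a response that differs between the lines was not shown for any member.

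Within lanes, the heavy chains went opposite ways on the 2 lanes of a line, and the immunoproteasome subunits did not do so in U87. For HLA-B, LKB1 minus control siRNA was 0.22 and −0.16 on lanes 2 and 4 of T98, and −0.17 and 0.22 on lanes 2 and 5 of U87. HLA-E gave 0.40 and −0.06 in T98 and −0.21 and 0.16 in U87, and HLA-C and HLA-F had the same signs as HLA-E on all 4 lane and line combinations. The values show positive differences on lane 2 of T98 and negative ones on lane 2 of U87 for all 4 heavy chains. PSMB9 gave −0.85 and −0.35 in U87 and 0.07 and −0.25 in T98. TAP2 gave −0.09 and −0.31 in U87 and 0.18 and 0.14 in T98. PSMB9, TAP2 and PSMB8 were the members negative on both U87 lanes, and TAP1, TAP2, PSMB8 and B2M, the last at 0.32 and 0.002, were those positive on both T98 lanes. How many of all genes had the same sign on both lanes of a line was not counted. Within the control groups, the other lane minus lane 2 had a member median of 0.26 in T98 controls (8 members higher, 1 lower) and −0.24 in U87 controls (0 higher, 9 lower). In the LKB1 siRNA libraries that median was −0.09 in T98 and 0.07 in U87, and over all genes it lay between −0.01 and 0.03 in the 4 groups. What set the control libraries of these members apart by lane was not tested.

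**Figure D2:**
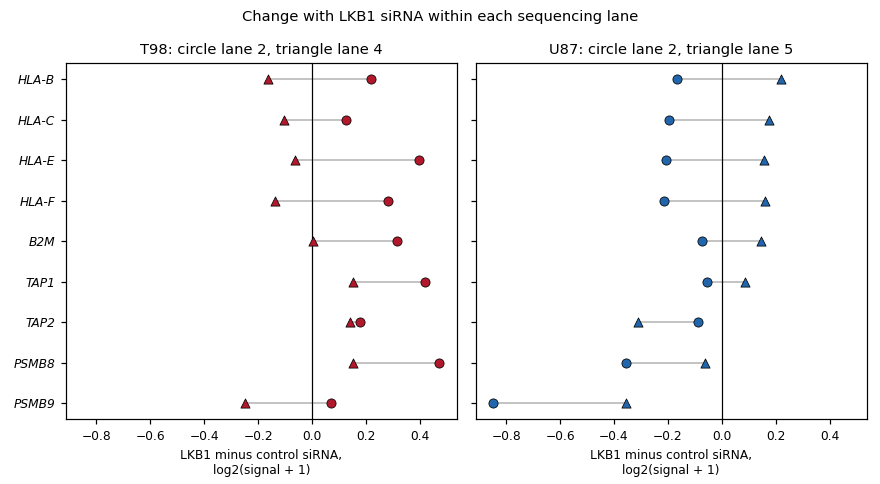
LKB1 minus control siRNA on the log2(signal + 1) scale for each member, computed within each sequencing lane (circles lane 2, triangles lane 4 in T98 and lane 5 in U87). The 4 heavy chains lie on opposite sides of 0 on the 2 lanes of each line, and PSMB9 is negative on both U87 lanes, at −0.85 and −0.35.

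The balance of inducible and constitutive catalytic subunits was compared as a ratio of signal per kilobase within a library, for the pairs PSMB8 to PSMB5, PSMB9 to PSMB6 and PSMB10 to PSMB7, in which the first subunit takes the place of the second in the immunoproteasome. PSMB8 to PSMB5 was 0.639 and 0.728 with LKB1 siRNA in T98, against 0.731 and 0.80 with control siRNA. In U87 the PSMB8 to PSMB5 ratio was 0.226 and 0.246 with LKB1 siRNA, against 0.356 and 0.346 with control siRNA. The ratio was lower with LKB1 siRNA on every lane, and its values in U87 did not reach those in T98. In T98 PSMB8 itself was higher with LKB1 siRNA, and PSMB5 had 4600 and 3574, against 2898 and 2930 with control siRNA. PSMB9 to PSMB6 was 0.318 and 0.411 with LKB1 siRNA in T98, against 0.386 and 0.447 with control siRNA. In U87 it was 0.104 and 0.0932 with LKB1 siRNA, against 0.210 and 0.140 with control siRNA. The LKB1 siRNA libraries lay below both controls of this pair in U87 and overlapped them in T98. PSMB10 to PSMB7 was 0.343 and 0.415 with LKB1 siRNA in T98, against 0.388 and 0.390 with control siRNA. In U87 it was 0.0557 and 0.0561 with LKB1 siRNA, against 0.0932 and 0.0759 with control siRNA. The ratio of LKB1 to control siRNA on the same lane ran from 0.495 to 0.739 over the 3 pairs and 2 lanes of U87, and from 0.824 to 1.06 in T98. These ratios were not tested, and are given as a description. A ratio within a library shows unequal change of its genes and not which of them changed: the constitutive PSMB5 had 5190 and 5004 with LKB1 siRNA in U87, against 4219 and 3717 with control siRNA, and the inducible PSMB10 had 646 and 679 with LKB1 siRNA, against 1278 and 956 with control siRNA. PSMB10 had a U87 effect of −0.74 (adjusted p = 0.273 by limma-trend), which passed only with the lane term (adjusted p = 0.0231). In lane-term fits without 1 library that effect ran over −0.98 to −0.49. Such fits take their residual spread only from the line left whole, so they cannot check the call.

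**Figure D3:**
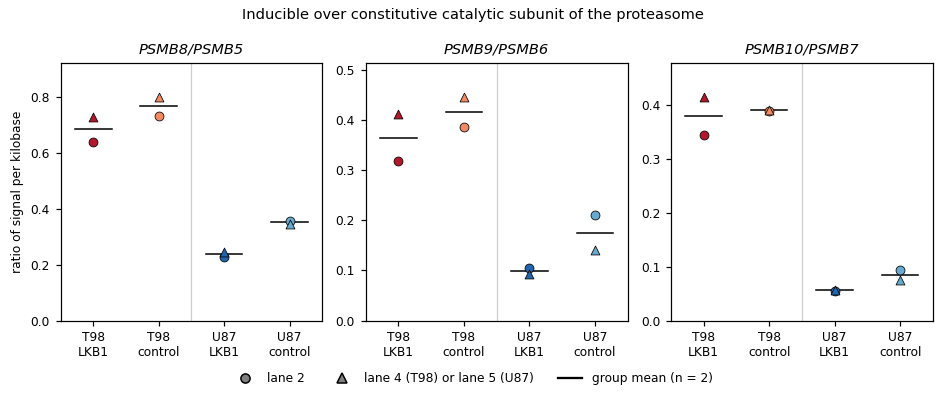
Ratio of signal per kilobase of each inducible proteasome subunit to its constitutive counterpart in each library (linear axes from 0, circles lane 2, triangles lane 4 or 5, lines the mean of 2 libraries). All 3 ratios are lower in U87 than in T98, and in U87 the LKB1 siRNA libraries lie below the control libraries, as with 0.226 and 0.246 against 0.356 and 0.346 for PSMB8 to PSMB5.

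T98 against U87, both with control siRNA, split the members into 2 sets. Of the 9 members, 3 were higher in T98 (TAP2, PSMB8 and PSMB9) and 3 lower (HLA-B, HLA-F and B2M) by limma-trend, where 18.3% of all genes were higher and 19.5% lower, 37.7% in all. With the lane term the lines were compared at lane 2, with 1 lane shift for each line fitted to both siRNA groups. Each shift is taken as equal with both siRNAs, although the member medians given above had opposite signs with control and LKB1 siRNA. That fit gave 3 higher and 4 lower with HLA-E added, where 30.7% of all genes were higher and 32.6% lower, 63.3% in all. HLA-B, HLA-F and their light chain B2M were thus lower in T98, while TAP2 and the inducible proteasome subunits were higher. HLA-B averaged 17747 ± 2512 in T98 and 38754 ± 6452 in U87 (SD, n = 2 each), a log2 difference of −1.12 (SE 0.22, adjusted p = 0.00624) with limma-trend. B2M averaged 32159 ± 4151 in T98 and 64784 ± 7922 in U87, a difference of −1.01 (SE 0.22, adjusted p = 0.0109) with limma-trend. HLA-F averaged 3029 ± 869 in T98 and 5031 ± 166 in U87, a difference of −0.76 (SE 0.24, adjusted p = 0.0373) with limma-trend. All 3 were lower in both T98 controls than in either U87 control. How many of all genes separate the lines so, in the controls or over all libraries, was not counted. PSMB9 averaged 2204 ± 149 in T98 and 853 ± 174 in U87, with a log2 difference of 1.38 (SE 0.21, adjusted p = 0.00232) by limma-trend. TAP2 averaged 4773 ± 687 in T98 and 2485 ± 198 in U87, with 0.94 (SE 0.22, adjusted p = 0.0137) by limma-trend. PSMB8 averaged 2724 ± 193 in T98 and 1703 ± 187 in U87, with 0.68 (SE 0.18, adjusted p = 0.0210) by limma-trend. HLA-C (0.19, 95% interval −0.31 to 0.70), TAP1 (−0.03, interval −0.57 to 0.52) and HLA-E (−0.41, SE 0.21, adjusted p = 0.160) did not pass limma-trend, and HLA-E was −0.54 (SE 0.19, adjusted p = 0.0364) with the lane term, a call lost without the lane 2 control library of either line and without any other U87 library (highest adjusted p = 0.596).

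HLA-B and PSMB9 kept their calls by limma-trend whichever of the 8 libraries was left out, at adjusted p of at most 0.0477 and 0.0172. B2M lost its call without the lane 2 control library of T98 or of U87 (highest adjusted p = 0.0745 with limma-trend). TAP2 lost it without the lane 2 control of T98 or the lane 5 control of U87 (highest 0.0857), and PSMB8 without either T98 control or the lane 5 control of U87 (highest 0.109). HLA-F kept its call only without the lane 4 library of T98 with LKB1 siRNA or with control siRNA, and lost it without each of the other 6 libraries (highest adjusted p = 0.205 with limma-trend). With recovered reads scaled by library total, HLA-F was at an adjusted p of 0.0501 by limma-trend.

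**Figure D4:**
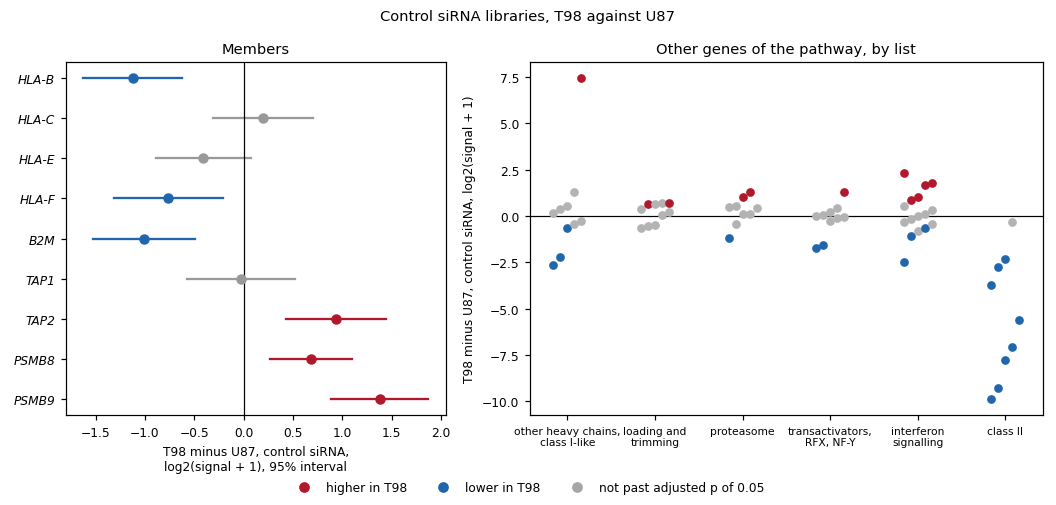
T98 minus U87 in the control siRNA libraries on the log2(signal + 1) scale (n = 2 per line), with 95% intervals for the 9 members at left and 1 point per gene for 6 lists of other genes of the pathway at right. Colour marks genes past an adjusted p of 0.05, and the members run from −1.12 for HLA-B to 1.38 for PSMB9.

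Among 10 transactivators and their DNA-binding partners, 1 was higher and 2 lower in T98 by limma-trend, where 18.3% of all genes were higher and 19.5% lower, with a median of −0.0092, the same to that precision as over all genes. NLRC5, the transactivator that drives class I genes, had 772 and 895 in T98 controls, against 2324 and 2535 in U87 controls, a log2 difference of −1.54 (SE 0.18, adjusted p = 0.000723) with limma-trend. CIITA, the transactivator of class II genes, had 100.3 and 189 in T98 controls, against 326 and 639.7 in U87 controls, a change of −1.72 (SE 0.45, adjusted p = 0.0199) with limma-trend. Its call was lost without the lane 2 control of T98 or the lane 5 control of U87 (highest adjusted p = 0.114). NFYA, which binds the CCAAT box, had 1589 and 1409 in T98 controls, against 565 and 637 in U87 controls, a change of 1.32 (SE 0.19, adjusted p = 0.00169) with limma-trend. Of the 9 class II genes, 8 were lower and 0 higher in T98 by limma-trend, with a median of −5.60, among them HLA-DRB1 at 45.9 and 77.0 in T98, against 7296 and 9285 in U87, and the invariant chain CD74 at 38.5 and 65.6 in T98, against 8092 and 15311 in U87. Antigen-presenting leukocytes also carry class II genes. Of the 7 leukocyte and microglia markers listed, CSF1R was at 7.53 to 25.2 in T98 libraries and 206 to 813 in U87 libraries, and ITGAM at 56.1 to 155 in T98 and 26.2 to 31.7 in U87. The 7 markers summed to 97.2 to 188 in T98 libraries and 248 to 864 in U87 libraries, while AIF1 and CD3E were at 1.89 or less in all 8, and the part of such cells in these results was not tested.

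Of 16 genes of interferon signalling, 5 were higher and 3 lower in T98 by limma-trend, where 18.3% of all genes were higher and 19.5% lower, with a median of 0.05. IFNGR2, a chain of the interferon-gamma receptor, had 2680 and 2522 in T98 controls, against 565 and 473 in U87 controls, a log2 difference of 2.33 (SE 0.19, adjusted p = 0.000144) with limma-trend. IRF1, the factor that interferon-gamma induces and that binds the response elements of this pathway, had 3476 and 3436 in T98 controls, against 1106 and 933 in U87 controls, a change of 1.77 (SE 0.18, adjusted p = 0.000413) with limma-trend. Both IFNGR2 and IRF1 were higher in T98, as were PSMB8, PSMB9 and TAP2, while HLA-B, HLA-F and B2M were lower. The response element core lay in windows of B2M, HLA-F, TAP1, TAP2 and PSMB8, and not in that of PSMB9. The TAP1 matches lie between the starts of TAP1 and PSMB9, which are 488 bases apart, but outside the window of PSMB9. A part of IRF1 in these differences was not tested. The kinase JAK2 had 358 and 305 in T98 controls, against 802 and 612 in U87 controls (−1.08, SE 0.27, adjusted p = 0.0185 with limma-trend). SOCS1, which inhibits JAK kinases, had 76.6 and 36.9 in T98 controls, against 413 and 228 in U87 controls (−2.50, SE 0.68, adjusted p = 0.0241 with limma-trend). The JAK2 call was lost without either T98 control or the lane 2 control of U87 (highest adjusted p = 0.118), and that of SOCS1 without the lane 4 control of T98 or the lane 2 control of U87 (highest 0.125).

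Among 9 other proteasome genes, 2 were higher and 1 lower in T98 by limma-trend, with a median of 0.43. Over all genes 18.3% were higher and 19.5% lower, 37.7% in all, the shares to set beside each list of this paragraph. PSME2, a subunit of the interferon-induced PA28 activator, had 2618 and 2603 in T98 controls, against 1216 and 929.8 in U87 controls, a log2 difference of 1.29 (SE 0.19, adjusted p = 0.00213) with limma-trend. PSMB10, the remaining inducible catalytic subunit, had 2369 and 2132 in T98 controls, against 1278 and 956 in U87 controls (1.02, SE 0.22, adjusted p = 0.00957 with limma-trend). PSMB7, which it replaces, had 6153 and 5510 in T98 controls, against 13842 and 12709 in U87 controls (−1.19, SE 0.22, adjusted p = 0.00557). PSME1, the partner of PSME2 in PA28, did not pass (0.14, SE 0.21, adjusted p = 0.642). The PSMB10 call was lost without the lane 2 control of T98 or the lane 5 control of U87 (highest adjusted p = 0.0596). Of 10 loading and trimming genes, 2 were higher and 0 lower in T98 with a median of 0.31, namely the chaperone CANX (0.70, SE 0.22, adjusted p = 0.0408 with limma-trend) and the trimming peptidase ERAP2 (0.65, SE 0.22, adjusted p = 0.0479). Both calls were lost whichever library was left out (highest adjusted p = 0.202 and 0.212). Of 10 tested class I-like genes, 1 was higher and 3 lower with a median of −0.04. The lipid-presenting CD1D had 240.1 and 761 in T98 controls, against 0.0286 and 4.82 in U87 controls (adjusted p = 0.00197 by limma-trend). ULBP1, a ligand of the NKG2D receptor, had 85.3 and 106 in T98 controls, against 594 and 602 in U87 controls (−2.64, SE 0.29, adjusted p = 0.000527). ULBP2, of the same ligand family, had 166 and 271 in T98 controls, against 886 and 1104 in U87 controls (−2.21, SE 0.30, adjusted p = 0.00126).

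With LKB1 siRNA, the other genes of the pathway gave no call unless the lane was modelled, and PDIA3, CALR and HSPA5 of the loading list were then higher in both lines. By limma-trend without a lane term, 0 genes of these 6 lists passed in T98 or in U87, and the most genes of a list with an unadjusted p under 0.05 were 5 of 10 loading and trimming genes in T98 and 5 of 10 transactivators in U87. Over all 14282 genes, 1502 in T98 and 1268 in U87 had an unadjusted p under 0.05. With the lane term, 3 of 10 loading and trimming genes were higher and 1 lower in T98, where 8.48% of all genes were higher and 7.33% lower, and 3 were higher and 0 lower in U87, where 5.29% and 5.91% were. PDIA3, the thiol oxidoreductase of the loading complex, had 26964 and 25307 with LKB1 siRNA in T98, against 17925 and 18975 with control siRNA. In U87, PDIA3 was at 26130 and 29800 with LKB1 siRNA, against 17524 and 18373 with control siRNA. LKB1 siRNA libraries of PDIA3 were above both controls in both lines, with log2 fold changes of 0.50 (SE 0.12, adjusted p = 0.0350) in T98 and 0.64 (SE 0.12, adjusted p = 0.0177) in U87 by limma-trend with the lane term. CALR, the chaperone calreticulin of the loading complex, had 50908 and 53225 with LKB1 siRNA in T98, against 29861 and 37431 with control siRNA, a change of 0.64 (SE 0.14, adjusted p = 0.0260) by limma-trend with the lane term. In U87, CALR was at 62304 and 78255 with LKB1 siRNA, against 45459 and 49108 with control siRNA, a change of 0.56 (SE 0.14, adjusted p = 0.0431) by the same fit. HSPA5, the general chaperone BiP, had 69126 and 54406 with LKB1 siRNA in T98, against 39891 and 33731 with control siRNA (0.74, SE 0.15, adjusted p = 0.0216 by the same fit). In U87, HSPA5 was at 99947 and 110241 with LKB1 siRNA, against 47330 and 70183 with control siRNA (0.86, SE 0.15, adjusted p = 0.0126 by the same fit). For CALR and HSPA5, both LKB1 siRNA libraries were above both controls in each line. The share of all genes separated in the way of PDIA3, CALR and HSPA5 was not counted. The chaperone CANX did not pass in either line, at −0.03, SE 0.13, adjusted p = 0.900 in T98 and 0.27, SE 0.13, adjusted p = 0.235 in U87. The peptidase ERAP1, which trims peptides to length, fell in T98, with 3833 and 3446 with LKB1 siRNA, against 6576 and 4297 with control siRNA (−0.55, SE 0.14, adjusted p = 0.0395 with the lane term, limma-trend). None of these calls passed without the lane term (adjusted p of 0.419 and 0.264 for PDIA3 in T98 and U87). Lane-term fits that left out 1 library cannot check the calls in these lists, since their residual spread comes only from the line left whole. In those fits the PDIA3 effect ran over 0.42 to 0.59 in T98 and 0.58 to 0.70 in U87. That of ERAP1 ran over −0.78 to −0.32 in T98.

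The other lists also held genes that passed with the lane term. In T98, 1 of 10 transactivators was higher and 1 lower, 1 of 10 class I-like genes was lower and 1 of 9 class II genes higher. Of 16 interferon signalling and 9 other proteasome genes 0 passed in T98, where 15.8% of all genes did. In U87, 1 of 10 transactivators and 1 of 9 other proteasome genes were lower, and 2 of 16 interferon signalling genes higher. Of the class I-like and class II genes 0 passed in U87, where 11.2% of all genes did. In T98, NFYA had 2525 and 2407 with LKB1 siRNA, against 1589 and 1409 with control siRNA (0.72, SE 0.14, adjusted p = 0.0177 by limma-trend with the lane term). RFX5, which binds the X box of class I and class II promoters, had 1461 and 2188 with LKB1 siRNA in T98, against 2691 and 3011 with control siRNA (−0.67, SE 0.16, adjusted p = 0.0319). MR1, which presents vitamin metabolites, had 541 and 965 with LKB1 siRNA in T98, against 845 and 1518 with control siRNA (−0.65, SE 0.13, adjusted p = 0.0205), where the values overlap across lanes but are lower on each lane. The class II gene HLA-DPB1 had 314 and 414 with LKB1 siRNA in T98, against 198 and 291 with control siRNA (0.58, SE 0.15, adjusted p = 0.0378). In U87, NFYB had 339 and 377 with LKB1 siRNA, against 651 and 653 with control siRNA (−0.86, SE 0.14, adjusted p = 0.0108 by limma-trend with the lane term). IFNGR2 had 801 and 773 with LKB1 siRNA in U87, against 565 and 473 with control siRNA (0.60, SE 0.13, adjusted p = 0.0243). IFNAR2, a chain of the type I interferon receptor, had 695 and 799 with LKB1 siRNA in U87, against 520.5 and 508 with control siRNA (0.53, SE 0.14, adjusted p = 0.0493). Both receptor chains were higher with LKB1 siRNA on each U87 lane. NLRC5 had 3338 and 3241 with LKB1 siRNA in U87, against 2324 and 2535 with control siRNA, and 829 and 926 with LKB1 siRNA in T98, against 772 and 895 with control siRNA, and did not pass in either line by either fit.

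Averaged over both lines, 0 genes of the 6 lists passed limma-trend without a lane term, where 1.86% of all genes did. With the lane term 4 of 10 loading and trimming genes were higher and 2 lower with LKB1 siRNA, where 13.2% of all genes were higher and 13.2% lower. Among 10 transactivators 2 were higher and 3 lower, among 16 interferon signalling genes 3 were higher and 2 lower, and among 9 proteasome genes 1 was higher and 1 lower. Of the class I-like genes 1 of 10 was lower, and of the class II genes 1 of 9 was higher. The list genes given above as past the threshold with the lane term, and PSMB5 (0.42, SE 0.09, adjusted p = 0.0167 by limma-trend with the lane term), were among them. ATF1, a factor of the CREB family, had a mean change of 0.52 (SE 0.11, adjusted p = 0.0125) by that fit. TAPBPL, the tapasin-related editor of peptides, had −0.42 (SE 0.11, adjusted p = 0.0303). IRF2, which binds the same elements as IRF1, had −0.34 (SE 0.09, adjusted p = 0.0293), and the kinase TYK2 had −0.30 (SE 0.09, adjusted p = 0.0401). Lane-term fits that left out 1 library cannot check these averaged list calls either, for the same reason. In those fits the mean effect on TAPBPL ran over −0.51 to −0.33.

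The members did not vary as 1 unit over the 8 libraries. Their mean profile, each member scaled to its own mean and SD, correlated with single members at Pearson r between 0.11 (TAP2) and 0.71 (TAP1), where the libraries share 2 lines and 3 lanes. Between pairs of members, r was 0.994 for HLA-B with B2M, 0.960 for PSMB8 with PSMB9 and −0.937 for HLA-B with TAP2. Opposed members thus cancel in the mean profile, which is not the profile of either set. The non-member genes most like that mean profile over the 8 libraries, by Pearson r among 12187 genes with a mean of at least 50, were SNF8 (0.958), EAPP (0.930), ROMO1 (0.927), HDGFRP2 (0.912) and SLC29A2 (0.909). SNF8, a subunit of the ESCRT-II sorting complex, had 3007 and 2653 with LKB1 siRNA in T98, against 1975 and 2912 with control siRNA, and 2391 and 2426 with LKB1 siRNA in U87, against 2841 and 2111 with control siRNA. Like the heavy chains, SNF8 was low on lane 2 and higher on lane 4 in T98 controls, and the reverse in U87 controls between lanes 2 and 5.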

How the data were processed

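RNA was sequenced from 8 libraries prepared with the TruSeq RNA kit V2, per the labels' protocols. The submitters' processing notes name TopHat2 2.0.8b, edgeR (version not given) and hg19. The values the authors deposited are a normalised signal, in 18815 transcript rows for 18787 symbols. They behave as counts that the authors moved to a common library size (pseudo-counts), since inverting that step returned whole reads within 0.05. Those reads served only for depth, counting error and 1 alternative.

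From the deposited signal, log2(signal + 1) was fitted with limma-trend (limma 3.58.1, R 4.3.3) over all 8 libraries with 4 group means and 4 residual degrees of freedom. The 14282 genes with a signal of at least 10 in at least 2 libraries entered two-sided tests, Benjamini-Hochberg adjusted over all of them, with a threshold of 0.05. The 5 contrasts set LKB1 siRNA against control siRNA within each line, took the mean and the difference of both effects, and set T98 against U87 in the control libraries. A second fit added a lane term for each line (the lane block), with 2 residual degrees of freedom. The labels do not say that libraries on 1 lane form a replicate. The lanes come from the column headers. Libraries on 1 lane deviated together within a line (correlation of lane differences over 14282 genes 0.717 in T98 and 0.809 in U87, and 0.124 to 0.177 between lines). The fit was tested on simulated data. Ratios and figures were made in Python 3.11.15.

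The members and gene lists were chosen with earlier results of these data known. Genes outside the members are named by a rule: in each list and comparison, up to 2 higher and 2 lower genes among those past the threshold in either fit, ranked by the adjusted p of the fit without a lane term. PSMB5, PSMB6 and PSMB7 were also named as partners of the inducible subunits, and NLRC5, CANX, HSPA5 in T98 and CALR in U87 with LKB1 siRNA, and PSME1 between the lines, were named after their values were seen. Promoters are from RefSeq on GRCh38.p14 and exon overlaps from GENCODE, while gene positions are those of the deposited hg19 table.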

Additional observations from a re-analysis of the deposited data

How the results depend on the processing

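The number of members past the threshold with limma-trend was 0 of 9 in T98, for the mean of the lines and for their difference under every alternative run: a pseudocount of 10, no filter on low values (18031 genes), median-of-ratios size factors, only the 4 libraries of a line (T98 and U87 effects), recovered reads scaled by library total, the lane term, and leaving out each library. In U87 it was 0 under the same alternatives except in the lane-term fit without 1 T98 library, so it ranged from 0 to 1 (PSMB9). Between the lines it was 6 in the fit without a lane term, 7 with the lane block and 5 with recovered reads scaled by library total. This number fell in some fits that left out 1 library, with and without the lane block. Recovered reads scaled by library total and leaving libraries out of the lane-term fit were chosen after seeing the data.

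Over all genes the lane block gave 2258 calls against 4 in T98, 1599 against 8 in U87, 3765 against 265 for the mean, 68 against 0 for the difference and 9037 against 5386 between the lines. Without any 1 U87 library, the block gave 0 calls in T98 and 0 in U87. Without the block, U87 had 21 calls with recovered reads scaled by library total and 0 with median-of-ratios size factors, and both lines had 0 with only the 4 libraries of the line.

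Some small effects changed sign. In U87, HLA-B was −0.025, B2M −0.016 and TAP1 −0.035 with recovered reads scaled by library total, and HLA-C was 0.014 with median-of-ratios size factors. Leaving out 1 library without the block, effects in T98 ran over −0.12 to 0.17 for HLA-B, −0.16 to 0.18 for HLA-C, −0.058 to 0.39 for HLA-E, −0.23 to 0.37 for HLA-F, −0.0060 to 0.32 for TAP2 and −0.18 to 0.0015 for PSMB9. Leaving out 1 library without the block, effects in U87 ran over −0.14 to 0.20 for HLA-B, −0.12 to 0.10 for HLA-C, −0.14 to 0.094 for HLA-E, −0.18 to 0.13 for HLA-F, −0.090 to 0.16 for B2M and −0.25 to 0.28 for TAP1. Leaving out 1 library without the block, effects between the lines ran over −0.29 to 0.23 for TAP1. Leaving out 1 library with the lane block, effects in T98 ran over −0.16 to 0.22 for HLA-B, −0.10 to 0.13 for HLA-C, −0.065 to 0.40 for HLA-E, −0.14 to 0.28 for HLA-F and −0.25 to 0.071 for PSMB9. Leaving out 1 library with the lane block, effects in U87 ran over −0.17 to 0.22 for HLA-B, −0.20 to 0.17 for HLA-C, −0.21 to 0.16 for HLA-E, −0.22 to 0.16 for HLA-F, −0.075 to 0.15 for B2M and −0.054 to 0.086 for TAP1. Leaving out 1 library with the lane block, effects between the lines ran over −0.035 to 0.34 for HLA-C. Of 173 member values under alternatives other than leaving out a library, 167 kept their direction and their side of the threshold. The cause of these changes was not tested. With 2 libraries a group, a fit without 1 library takes the spread of the lone library from the other groups. With the lane term such a fit takes its residual spread only from the line left whole, so these fits are not separate checks.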
